A study of Mus musculus with 6 samples.

Results

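Extraembryonic endoderm and trophoblast genes were followed in mouse embryonic stem cells with an intact or a truncated Dido3. The set was a named list of 38 genes, 27 of the extraembryonic endoderm and 11 of the trophoblast. Each was matched by gene symbol to the probe sets of the array, and 37 of the 38 had at least 1 named probe set, among 18193 genes in all. The exception was the trophoblast hormone gene Prl3d1, for which no probe set was named here. Where a gene had several of the 80 probe sets, the one with the highest mean over the 6 arrays stood for it and the others served as a check.

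The data are 6 Affymetrix expression arrays of total mouse RNA, 3 from wild-type cells and 3 from cells carrying the C-terminally truncated Dido3 allele Dido3deltaCT. The gene Dido1 gives several proteins, of which Dido3 is the longest, and the series concerns its part in self-renewal and differentiation. Both groups were embryonic stem cells in culture with leukemia inhibitory factor, which sustains self-renewal, and the labels call the 3 arrays of a group biological replicates. The labels do not say how many independent lines a group holds, so the p-values may measure the spread between cultures of 1 line.

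Mouse embryonic stem cells correspond to the epiblast precursor of the blastocyst, the tissue from which the embryo itself arises. The primitive endoderm, set up by Gata6, Gata4, Sox17 and Sox7 and by signalling through Pdgfra, gives rise to the parietal endoderm, which lays down a thick basement membrane of laminin and type IV collagen, and to the visceral endoderm, which takes up nutrients through Lrp2, cubilin and amnionless and secretes lipoproteins and transport proteins. The trophectoderm, set up by Tead4, Cdx2, Gata3 and Tfap2 factors, gives rise to the trophoblast of the placenta. Self-renewing cultures of mouse embryonic stem cells in leukemia inhibitory factor are known to hold some cells primed towards primitive endoderm.

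The 14 embryonic stem cell markers examined, Pou5f1, Nanog and Sox2 among them, were all above the expression limit in these cells, with group means of at least 7.85. Between truncated and wild-type cells, Tbx3 differed by 1.41 (limma adjusted p = 0.00446) and Fgf4 by −1.46 (0.0329). Both passed the threshold given below, and the other 12 markers did not. All values are log2 expression values, and a gene was called above the limit when its mean over the 6 arrays exceeded 4.82, the median of all probe sets on all arrays. The limit does not show that a transcript was present, and values of different probe sets are not on a common scale. The Dido1 probe set ranged from 8.16 to 8.55 on wild-type and from 6.62 to 7.27 on truncated arrays; its place relative to the removed part was not analysed here. Wild-type replicate 3 and truncated replicate 2 stood apart from the other arrays. Their poly-A spike-in controls, RNAs added to the sample before labelling, averaged 12.10 and 12.46 against 6.12 to 7.85, and their fibroblast transcripts were low. The mean of 24 fibroblast markers was 5.71 and 6.86 on these 2 arrays and 8.16 to 8.79 on the other 4. They are called the high-control pair here, and the other 4 the low-control arrays. The Y-linked gene Eif2s3y ranged from 8.43 to 8.69 on wild-type and from 3.43 to 3.86 on truncated arrays. Uty, also Y-linked, ranged from 5.85 to 6.06 and from 4.37 to 5.04, while Y-linked Kdm5d was at 3.37 or lower on every array. The X-linked gene Xist ranged from 8.51 to 8.89 on wild-type and from 9.26 to 9.33 on truncated arrays. The groups thus differed in Y-linked RNA as well as in Dido3, and the effects of these differences cannot be told apart. The 3' minus 5' signal of beta-actin, a sign of RNA quality, was 1.07 ± 0.11 with intact and 0.85 ± 0.02 with truncated Dido3 (SD over 3 arrays; two-sided exact permutation p = 0.1, the smallest that 3 against 3 arrays allow, and 0.45 after Benjamini-Hochberg adjustment over 9 such measures); its part in the results was not tested.

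Of the 37 genes, 2 differed between truncated and wild-type cells. Gata3, a transcription factor of the trophectoderm, rose by 1.98 log2 units, and Apoe, the gene for apolipoprotein E, fell by 1.08. The other 35 did not pass the threshold, an adjusted p of 0.05 from limma's moderated test over all genes. Of all 18193 genes, 4.67% passed, 2.70% upwards and 1.97% downwards, so the share of members that passed, 5.41%, was near the background. The groups did not overlap for 9 members (24.3%), 7 of them higher and 2 lower in truncated cells, beside 22.4% of all genes (11.6% higher and 10.9% lower). The median difference of the 37 members was 0.10, and that of all genes was 0.01. Of the 27 endoderm members, 19 were higher and 8 lower in truncated cells, with a median difference of 0.14. Of the 10 trophoblast members measured, 7 were higher and 3 lower, with a median of 0.06. Over all 18193 genes, 9430 were higher and 8763 lower. A shift of either list as a whole was not tested.

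**Figure D1:**
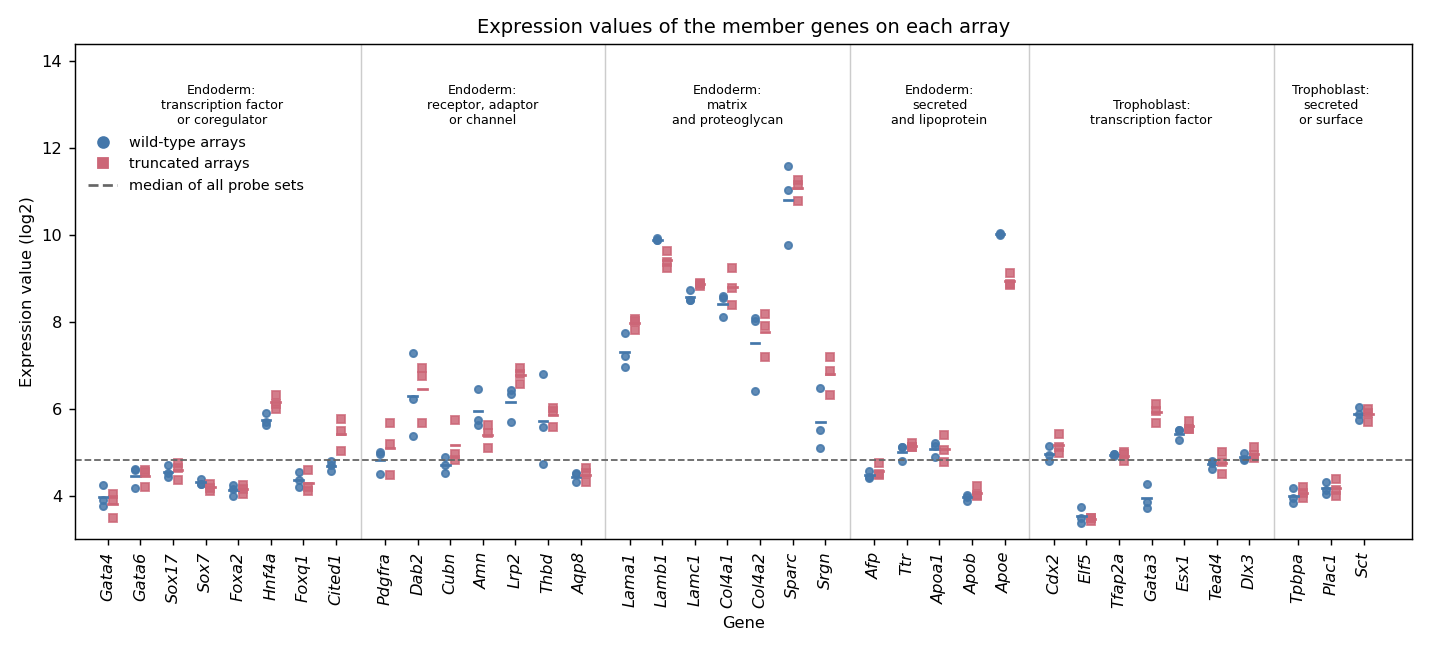
Log2 expression values of the 37 measured members (y axis) on each of the 3 wild-type arrays (circles) and 3 truncated arrays (squares), grouped by role along the x axis; short bars are group means and the dashed line is the limit of 4.82. Most transcription factors and coregulators lie near or below the line. Hnf4a, Esx1 and, narrowly, Dlx3 are above it on every array, and Gata3 and Cited1 on the truncated arrays only. The points of the 2 groups are clearly separate for Gata3 and Apoe, while those of Srgn overlap.

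The defining transcription factors of the primitive endoderm stayed below the limit on every array of both groups. Gata4 was at 3.91, 4.24 and 3.77 on the wild-type arrays and 3.91, 3.50 and 4.05 on the truncated arrays. Gata6 was at 4.61, 4.17 and 4.58 on the wild-type arrays and 4.59, 4.20 and 4.55 on the truncated ones. Sox17 was at 4.53, 4.42 and 4.71 and at 4.64, 4.37 and 4.76. The groups overlapped on these probe sets, and truncated replicate 2 was the lowest truncated array for all 3 genes. The differences were −0.16 for Gata4 (95% confidence interval −0.59 to 0.28; limma adjusted p = 0.746), −0.01 for Gata6 (−0.39 to 0.38; 0.993) and 0.04 for Sox17 (−0.28 to 0.36; 0.936). At such values a difference is compressed by background, so these intervals bound the change in signal and not that in RNA. Sox7, Foxa2, which acts in endoderm of several kinds, and the forkhead gene Foxq1 were also below the limit, with differences of −0.12, 0.02 and −0.07. A second probe set of Sox7 averaged 3.89 ± 0.11 on wild-type and 4.50 ± 0.26 on truncated arrays (SD over 3 arrays), with groups that did not overlap and an adjusted p of 0.0889 in the limma fit over all probe sets. It did not pass, and its values lay below the limit. A second probe set of Gata4, also below the limit, differed by −0.20 without overlap of the groups (adjusted p = 0.33) and did not pass.

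Hnf4a and Cited1 were the endoderm regulators above the limit. Hnf4a, a nuclear receptor that drives the secretory programme of the visceral endoderm, was at 5.71, 5.63 and 5.90 on the wild-type arrays and 6.01, 6.32 and 6.12 on the truncated ones. Every truncated array was above every wild-type array, but the difference of 0.40 did not pass (SE 0.12; adjusted p = 0.128). Of the other probe sets of Hnf4a, the 1 above the limit differed by 0.14 (adjusted p = 0.648), with overlapping groups. Cited1, an X-linked transcriptional coregulator, was at 4.81, 4.71 and 4.56 on the wild-type arrays and 5.77, 5.03 and 5.49 on the truncated ones. It was above the limit through the truncated arrays alone, and the difference of 0.74 did not pass (SE 0.19, adjusted p = 0.0836). It passed without truncated replicate 2 (0.93, adjusted p = 0.0345) but with no other array left out (adjusted p from 0.125 to 0.265). Among the 617 X-linked genes tested, 19.6% rose. The other X-linked members, the trophoblast genes Esx1 and Plac1, differed by 0.17 and 0.01.

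Most surface receptors and adaptors of the endoderm list were above the limit, and none of the 7 passed. Lrp2, the gene for megalin, the large endocytic receptor of the visceral endoderm, was at 5.71, 6.35 and 6.43 on the wild-type arrays and 6.81, 6.95 and 6.58 on the truncated ones. The truncated arrays lay above all wild-type arrays, by a mean of 0.62 that did not pass (SE 0.21; adjusted p = 0.168); a second probe set differed by 0.30 with overlapping groups, and the last, below the limit, differed by −0.23. The difference of Lrp2 was 0.39 without wild-type replicate 1 and 0.23 with the mean of its probe sets. Amn, the gene for amnionless, which anchors cubilin in the membrane, was at 5.62, 5.75 and 6.46 on the wild-type arrays and 5.45, 5.62 and 5.09 on the truncated ones. Wild-type replicate 3 was high, the groups met at 5.62, and the difference was −0.56 (SE 0.24; adjusted p = 0.293), or −0.30 without that array. Cubn, the gene for cubilin itself, stood at 5.75 on truncated replicate 1 and between 4.52 and 4.96 on the other 5 arrays. The 2 genes of the cubilin and amnionless complex thus differed in sign, 0.46 for Cubn and −0.56 for Amn, and neither passed. The water channel gene Aqp8 was below the limit, with a difference of 0.04.

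The laminin genes lay on both sides of zero. Laminin-111, the laminin of the early basement membranes, is assembled from the products of Lama1, Lamb1 and Lamc1. Lama1 was at 6.97, 7.23 and 7.74 on the wild-type arrays and 7.80, 8.03 and 8.07 on the truncated ones. Its difference was 0.66 (SE 0.20, adjusted p = 0.134). It passed without wild-type replicate 3 (0.87, adjusted p = 0.0182) but with no other array left out (adjusted p from 0.252 to 0.365). Lamb1 was at 9.88, 9.93 and 9.88 on the wild-type arrays and 9.24, 9.39 and 9.64 on the truncated ones, a difference of −0.47 (SE 0.12; adjusted p = 0.0774). Lamc1 was at 8.50, 8.74 and 8.51 on the wild-type arrays and 8.87, 8.82 and 8.91 on the truncated ones, a difference of 0.28 (SE 0.10; adjusted p = 0.192). The groups did not overlap for any of the 3 genes, with Lama1 and Lamc1 higher and Lamb1 lower in truncated cells. None passed in the fit of these probe sets to all arrays with group as the only term and equal weights. With array weights Lama1 and Lamb1 passed (limma adjusted p = 0.0222 and 0.0369), while 11.3% of all genes passed. The other probe sets above the limit had the same signs. For Lamb1, the further probe sets differed by −0.47 and −0.45 with overlapping groups (adjusted p = 0.307 and 0.309 over all probe sets). For Lamc1, the second probe set differed by 0.56 (adjusted p = 0.0539), and with the mean of its probe sets Lamc1 passed (0.42, adjusted p = 0.0401).

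**Figure D2:**
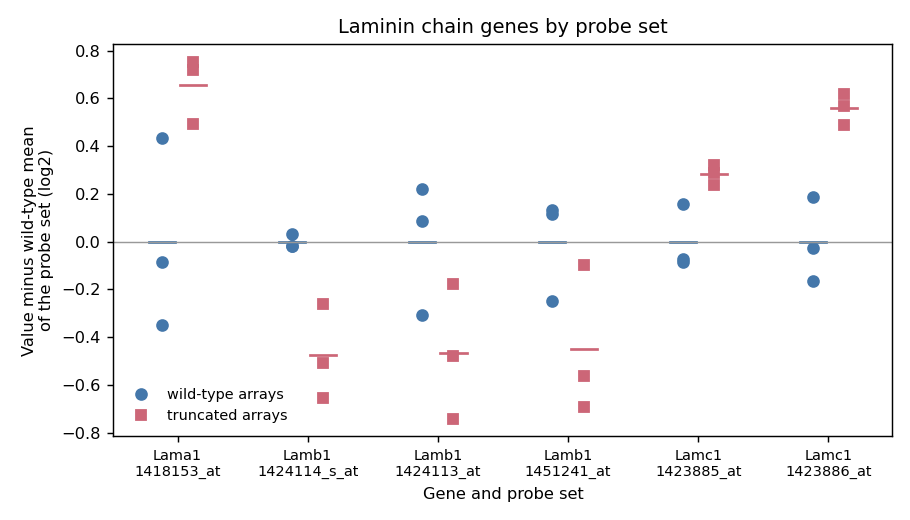
Values of the 6 probe sets of Lama1, Lamb1 and Lamc1 above the limit on each array, given on the y axis as the log2 value minus the wild-type mean of that probe set (circles wild-type, squares truncated, short bars group means, n = 3 each). Group means of truncated arrays lie above zero for Lama1 and Lamc1 and below zero for all 3 probe sets of Lamb1.

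The remaining matrix genes varied more among arrays of a group than between the groups. Sparc, the gene for a secreted collagen-binding glycoprotein made in large amounts by parietal endoderm and by fibroblasts, was at 11.59, 11.04 and 9.77 on the wild-type arrays and 11.28, 10.80 and 11.16 on the truncated ones. Col4a2 was at 8.09, 8.02 and 6.41 on the wild-type arrays and 7.91, 7.18 and 8.19 on the truncated ones. Col4a1, which encodes the partner chain of type IV collagen, was at 8.60, 8.55 and 8.13 and at 8.77, 8.38 and 9.24. For these 3 genes the lowest array of each group was the one with few fibroblast transcripts, wild-type replicate 3 and truncated replicate 2. The same held for Dab2, an endocytic adaptor needed in the visceral endoderm, at 7.28, 6.22 and 5.37 and at 6.95, 5.68 and 6.75, and for Pdgfra, the receptor that marks primitive endoderm and also many fibroblasts, at 5.004, 4.95 and 4.50 and at 5.66, 4.47 and 5.18. Thbd, the gene for the anticoagulant receptor thrombomodulin, was lowest on the wild-type array of the pair (4.74, against 5.59 and 6.80) but not on the truncated one (5.96, against 5.59 and 6.01).

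All 24 measured fibroblast markers had their lowest value of each group on wild-type replicate 3 and truncated replicate 2, as were 7 of the 18 endoderm members above the limit, 1 of the 6 such trophoblast members and 23.9% of all genes above the limit. The 7 were the 5 just described with Cited1 and Apoa1, and the trophoblast member was Gata3. Hnf4a, Amn and Lrp2 were highest on these 2 arrays. In such bulk RNA, fewer cells of a type and less RNA per cell cannot be told apart, and the part of fibroblast transcripts in these values was not tested. The group difference was 0.28 for Sparc, 0.25 for Col4a2, 0.38 for Col4a1, 0.17 for Dab2, 0.29 for Pdgfra and 0.14 for Thbd, and adjusted p was 0.485 or higher for each. Within the 4 low-control arrays the differences of Sparc, Col4a2, Col4a1, Dab2, Pdgfra and Thbd were −0.10, −0.00, 0.44, 0.10, 0.45 and −0.40. Within the high-control pair they were, in the same order, 1.03, 0.77, 0.25, 0.31, −0.03 and 1.22. Thus Col4a1 and Pdgfra differed more in the low-control arrays, and the other 4 had larger differences between the groups in the pair. Over all arrays the fibroblast markers did not separate the groups, with means of 7.68 ± 1.71 in wild-type against 7.73 ± 0.75 in truncated cells (SD over 3 arrays, two-sided exact permutation p = 1). The direction differed between the low-control arrays and the pair. On the low-control arrays the fibroblast mean was 8.79 and 8.54 in wild-type against 8.17 and 8.16 in truncated cells. In the high-control pair it was 5.71 in wild-type against 6.86 in truncated cells.

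**Figure D3:**
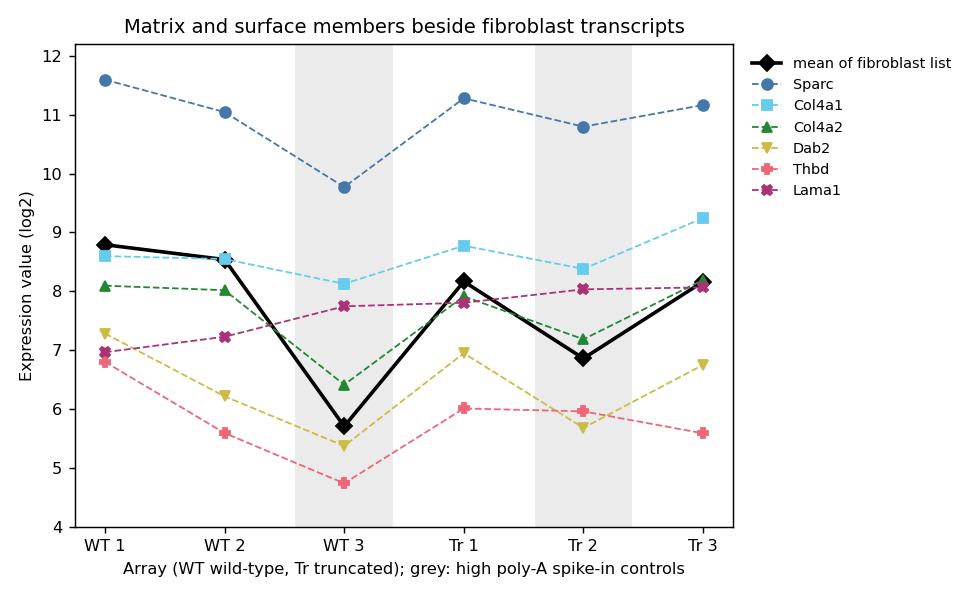
Log2 expression values of Sparc, Col4a1, Col4a2, Dab2, Thbd and Lama1 and the mean of 24 fibroblast markers (diamonds, solid line) on each array; lines only join the values of a gene, and grey bands mark the high-control pair. Sparc, Col4a1, Col4a2 and Dab2 dip with the fibroblast mean on wild-type replicate 3 and truncated replicate 2, and Lama1 does not.

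Srgn, the gene for the granule proteoglycan serglycin, had the largest difference that did not pass. It was at 5.10, 5.50 and 6.47 on the wild-type arrays and 6.86, 6.32 and 7.19 on the truncated ones. Wild-type replicate 3 lay within the truncated range, so the groups overlapped. The difference was 1.10 (SE 0.37; 95% confidence interval 0.21 to 1.99; adjusted p = 0.174). It was 1.73 in the 4 low-control arrays, where it passed (adjusted p = 0.0257), 1.49 without wild-type replicate 3 alone (0.0264), and −0.15 within the high-control pair. With any other array left out Srgn did not pass (adjusted p from 0.173 to 0.454).

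Apoe fell in the truncated cells, and the other secreted proteins of the endoderm list were near or below the limit in both groups. Apoe was at 10.05, 10.02 and 10.01 on the wild-type arrays and 8.85, 9.12 and 8.87 on the truncated ones. The wild-type arrays lay within 0.05 of one another and all truncated arrays were below them. The difference of −1.08 (SE 0.10; 95% confidence interval −1.32 to −0.84), or 2.11-fold lower, passed at an adjusted p of 0.00421. It was −1.17 in the 4 low-control arrays and −0.89 in the high-control pair. Apolipoprotein E is made by visceral endoderm but also by many other cells, and a single probe set measured it. Apoc1, its neighbour in the same gene cluster, was at 7.80 ± 0.41 and 7.91 ± 0.10 (SD, n = 3 each; adjusted p = 0.858). Afp, Ttr, Apoa1 and Apob, which visceral endoderm and liver secrete in large amounts, had group means from 3.96 to 5.14 and differences from −0.01 to 0.14. The hepatocyte markers measured, 5 in all, were below the limit on every array, from 3.04 to 4.65.

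Gata3 rose in the truncated cells and was the only one of the 10 measured trophoblast members to pass. It was at 4.27, 3.85 and 3.71 on the wild-type arrays and 5.96, 5.68 and 6.12 on the truncated ones. All wild-type arrays lay below the limit of 4.82 and all truncated arrays above it. The difference was 1.98 (SE 0.18; 95% confidence interval 1.55 to 2.40), with an adjusted p of 0.00394. Because the wild-type signal lay below the limit, this is a difference in signal, and no fold change in RNA is given. It was 1.98 in the 4 low-control arrays and 1.97 in the high-control pair. A single probe set measured it.

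The other trophoblast transcription factors did not pass. Cdx2 was at 5.15, 4.94 and 4.80 on the wild-type arrays and 5.43, 5.11 and 4.99 on the truncated ones, with overlapping groups and a difference of 0.21 (95% confidence interval −0.14 to 0.57; adjusted p = 0.541). A second probe set of Cdx2, below the limit, differed by −0.11 with overlapping groups (limma adjusted p = 0.717 over all probe sets). With the mean of its probe sets the difference of Cdx2 was 0.05. Elf5, which maintains trophoblast stem cells, was at 3.37, 3.74 and 3.49 and at 3.41, 3.48 and 3.49, a difference of −0.07 (−0.35 to 0.20; 0.823). Elf5 lay below the limit throughout, and Cdx2 lay close to the limit on every array. Tead4, the factor upstream of Cdx2, differed by 0.04, Tfap2a by −0.02, and the placental homeobox genes Dlx3 and Esx1 by 0.09 and 0.17. Esx1 was at 5.28, 5.50 and 5.50 on the wild-type arrays and 5.72, 5.55 and 5.55 on the truncated ones; its groups did not overlap, by a gap smaller than the spread within either group. Among genes of differentiated trophoblast, Tpbpa, a marker of the spongiotrophoblast, and Plac1 were below the limit, with differences of 0.08 and 0.01. Sct, the gene for the hormone secretin, ranged from 5.71 to 6.05 over all arrays and differed by −0.02.

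**Figure D4:**
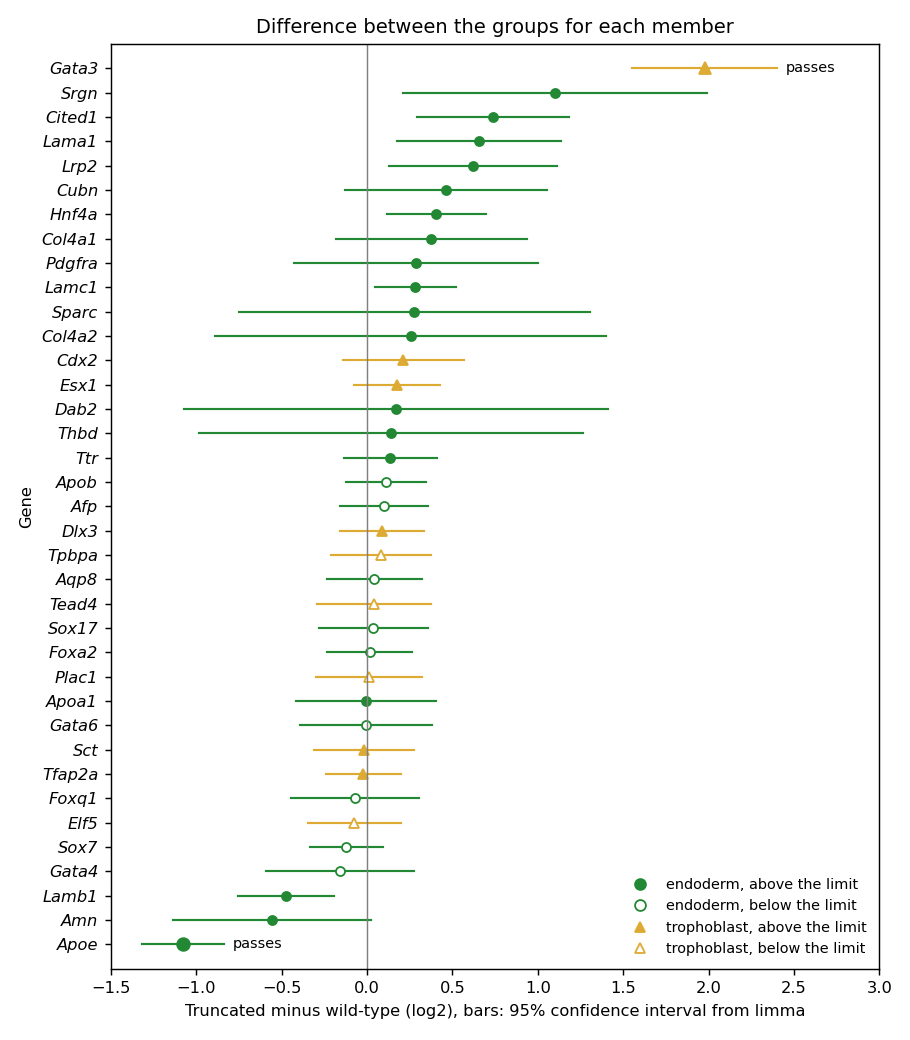
Difference between truncated and wild-type means for each of the 37 measured members (x axis, log2 units), with the 95% confidence interval from limma, ordered by size; circles are endoderm and triangles trophoblast genes, open where the mean over the arrays lay below the limit of 4.82. Gata3 at 1.98 and Apoe at −1.08 passed, and the widest intervals belong to matrix and surface genes such as Dab2, Col4a2, Thbd and Sparc.

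Because Gata3 and Apoe were the members that changed, the 250 bases upstream of their transcription starts are shown, from RefSeq on GRCm38.p6, 5′ to 3′ on the strand of the gene, here the minus strand for both. The Gata3 stretch is chr2:9878601-9878850. The Apoe stretch is chr7:19699189-19699438, for the start farthest upstream of 3 listed. Capitals mark GGGCGG, the core of the GC box bound by Sp1 factors, searched on both strands.
Gata3: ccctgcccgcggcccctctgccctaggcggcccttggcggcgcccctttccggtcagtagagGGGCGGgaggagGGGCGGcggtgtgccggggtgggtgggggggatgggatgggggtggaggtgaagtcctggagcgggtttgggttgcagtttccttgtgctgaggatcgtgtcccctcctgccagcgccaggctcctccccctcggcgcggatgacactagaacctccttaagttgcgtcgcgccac
Apoe: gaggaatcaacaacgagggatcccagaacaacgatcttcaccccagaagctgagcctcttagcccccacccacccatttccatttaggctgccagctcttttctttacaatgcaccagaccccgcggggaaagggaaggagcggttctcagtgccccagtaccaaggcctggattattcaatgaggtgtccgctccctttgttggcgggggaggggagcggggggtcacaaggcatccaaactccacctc

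The Gata3 stretch held GGGCGG 2 times and was 70.0% G and C, and the Apoe stretch held it 0 times and was 57.2% G and C. Over all 32851 such stretches in the table, 32.7% held GGGCGG on either strand. Stretches were listed for 26 of the 37 measured members, with 38 stretches in all, and 13 of the 38 (34.2%) held GGGCGG. The TATA box letters TATAAA were in neither stretch shown and in 12.4% of all stretches; AGATAA, a form of the site that GATA factors bind, was in neither and in 9.99% of all. These matches describe the letters in the window and no binding.

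With the level of the spike-in controls as a block, 4 members passed: Gata3, Apoe, Cited1 (adjusted p = 0.0223) and Hnf4a (0.0384), while 8.62% of all genes passed. In the 4 low-control arrays alone, 4 members passed, Gata3, Apoe, Cited1 (0.0392) and Srgn, and 5.12% of all genes. With the mean of the fibroblast markers as a covariate, 6 members passed and 10.9% of all genes. These were Gata3, Apoe, Cited1 (0.0309), Hnf4a (0.0386), Lama1 (0.017) and Amn (0.0291), the last with a difference of −0.54. Gata3 and Apoe kept their direction and passed under each of the 17 alternatives run, with adjusted p from 0.00063 to 0.0403 for Gata3 and from 0.000909 to 0.0387 for Apoe. Not all of these could have changed the result. Each gene has a single probe set, so the probe set filter and the mean of probe sets left its values unchanged, as did the expression filter. Gata3 met the expression filter through its truncated arrays alone.

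Further genes of the same lineages were read from a separate list of 40 extraembryonic endoderm genes that holds no member, of which 38 were measured. Of these, 1 passed, upwards, beside 4.67% of all genes in either direction. The other 37 did not pass, and the median difference was 0.04. Npnt, the gene for nephronectin, a basement membrane ligand of integrins, was at 5.64, 5.10 and 5.25 on the wild-type arrays and 6.14, 6.31 and 6.40 on the truncated ones (difference 0.95, SE 0.16; adjusted p = 0.0232). Of its 4 other probe sets, all below the limit, 1 differed by 0.91 and 3 by 0.03 to 0.24, and with the mean of all 5 the difference was 0.45 (adjusted p = 0.0496). All truncated arrays were above all wild-type arrays, but the call was lost without wild-type replicate 2 (adjusted p = 0.0869) or without truncated replicate 1, 2 or 3 (0.0883, 0.0736 and 0.118), and in the 4 low-control arrays (0.0924). The basement membrane genes Nid1, Nid2 and Hspg2, whose products bind laminin, had differences of 0.22, −0.24 and 0.12, none of which passed. The lipoprotein genes Apom and Mttp were at 5.57 ± 0.30 and 5.53 ± 0.34 in wild-type and 6.52 ± 0.30 and 6.20 ± 0.16 in truncated cells (SD over 3 arrays), and did not pass either (limma adjusted p = 0.0508 and 0.0982). The apolipoprotein genes Apoa2, Apoa4 and Apoc2 on the same list differed by −0.30, −0.08 and 0.00.

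Of 34 other trophoblast genes, 27 were measured. The threshold was passed by 2 upwards and by 2 downwards, beside 2.70% and 1.97% of all genes. The median difference of the 27 was −0.06. Phlda2, an imprinted gene that restrains placental growth, was at 9.05, 8.95 and 8.29 on the wild-type arrays and 6.33, 7.01 and 6.12 on the truncated ones, a difference of −2.28 (SE 0.28; adjusted p = 0.00961). Krt8, a keratin of simple epithelia and of trophectoderm, was at 7.69, 8.68 and 7.82 on the wild-type arrays and 5.85, 6.45 and 6.21 on the truncated ones, a difference of −1.90 (SE 0.28; adjusted p = 0.016). For both genes every truncated array was below every wild-type array, in the direction opposite to Gata3. Phlda2 lost the call without wild-type replicate 2 (adjusted p = 0.0573) or without truncated replicate 1 or 3 (0.0726 and 0.0574), and Krt8 without truncated replicate 1 or 3 (0.0929 and 0.0908). Lgals3, the gene for galectin-3, rose by 0.92 (SE 0.20; adjusted p = 0.049), and Gjb5, a connexin gene of trophoblast, by 0.47 (SE 0.09; 0.037), without overlap of the groups; each lost the call with any 1 array left out, at adjusted p from 0.052 to 0.187 for Lgals3 and from 0.0516 to 0.146 for Gjb5. Krt18, the partner keratin of Krt8, differed by −1.09 (adjusted p = 0.0543), and the trophoblast regulators Tfap2c and Eomes by −1.07 (0.0927) and −0.65 (0.22), none of which passed. Other regulators on the list were higher without overlap of the groups and did not pass either: Ets2 by 0.93 (0.0886), Id2 by 1.24 (0.15), Ascl2 by 0.40 (0.15) and Hand1 by 0.29 (0.336). The groups did not overlap for 13 of the 27 genes, 8 higher and 5 lower in truncated cells. The share without overlap was 22.4% of all genes (11.6% higher and 10.9% lower) and 28.8% of genes above the limit.

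**Figure D5:**
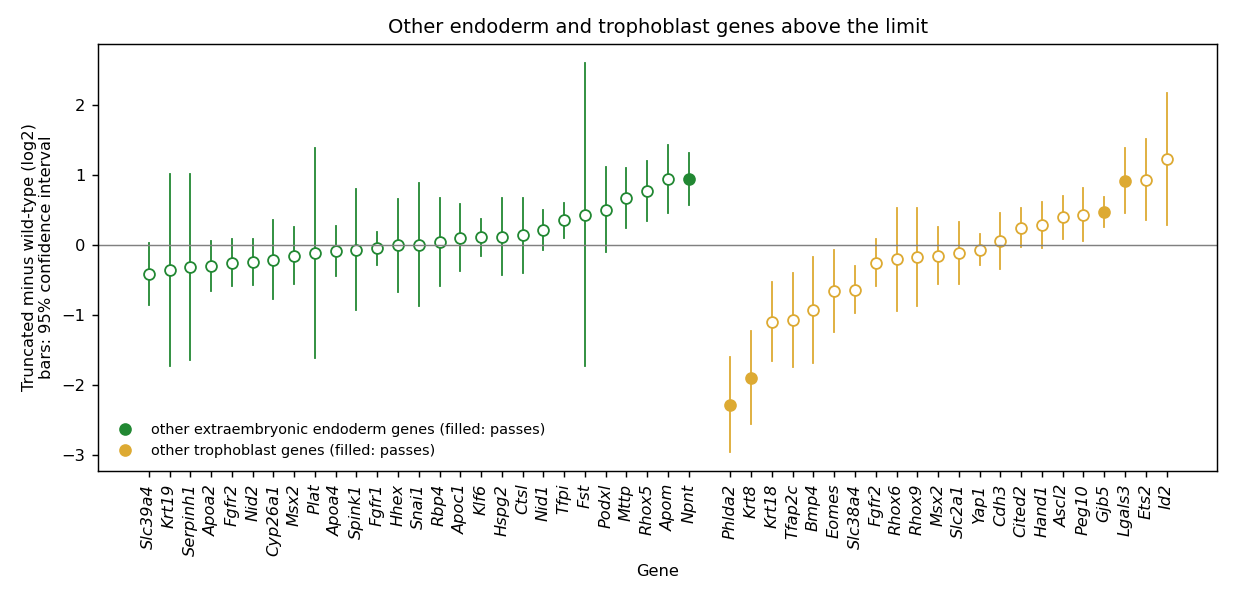
Difference between truncated and wild-type means (y axis, log2 units) with the 95% confidence interval from limma for the genes above the limit on the separate endoderm list (left, 27 genes) and trophoblast list (right, 22 genes), ordered by size within each; filled points passed. On the left Npnt passed, and on the right Phlda2 and Krt8 fell while Gjb5 and Lgals3 rose; Fgfr2 and Msx2 stand on both lists.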

How the data were processed

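The values the authors deposited are on a log2 scale, judged from their range, with 1 value per probe set and array. How they were summarised and normalised was not given in the sources used here. Array medians lay between 4.80 and 4.86, and no further scaling was applied. Of 45101 probe sets, 64 controls were left out; 34945 had 1 gene symbol, 932 had several and were not used, and 9160 were unnamed here. Symbols were checked by Entrez identifier against RefSeq (GRCm38.p6; 34741 matched, 0 changed).

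Truncated and wild-type arrays were compared in limma 3.58.1 (R 4.3.3; lmFit, then eBayes), with group as the only term, two-sided, adjusted by Benjamini-Hochberg over all 18193 genes or, for single probe sets, over 45037 probe sets. The fit was tested on simulated data. Differences are truncated minus wild-type, with limma's SE; the number of arrays limits their precision. Members, marker lists and the split by spike-in controls were chosen with earlier results of these data known. All members are named. Full statistics go to members that passed, the 6 largest differences above the limit that did not, Gata4, Gata6, Sox17, Cdx2 and Elf5; of the other lists, up to 8 genes that passed are named, and further genes named were chosen after their values were seen. Replicate numbers did not pair the samples: deviations of same-numbered arrays correlated at 0.29, −0.36 and −0.13. The alternatives were a replicate block, quantile normalisation, median centring, probe set and expression filters, the mean of probe sets, other variance settings, array weights, each array left out, spike-in level and fibroblast markers. Figures come from Python 3.11.15 and matplotlib 3.10.9.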

Additional observations from a re-analysis of the deposited data

How the results depend on the processing

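Gata3 and Apoe passed under all 17 alternatives, though the probe set and expression filters and the mean of probe sets left their values unchanged. The count of trophoblast members stayed at 1. The count of endoderm members, 1 as reported, is given here with the share of all genes that passed, 4.67% as reported. It was 2 with the mean of all probe sets (4.77%). With array weights it was 6 (11.3%), namely Apoe, Cited1, Hnf4a, Lama1, Lamb1 and Srgn. It was 3 with the spike-in level as a block (8.62%), 3 in the low spike-in arrays alone (5.12%) and 5 with the fibroblast covariate (10.9%). With an array left out it was 1 to 3 (0.709% to 6.55%). The higher counts were 3 without wild-type replicate 3 (6.55%) and 2 without truncated replicate 2 (2.76%). The count over all genes, 850, was 466 with the replicate block, which left Gata3 and Apoe past the threshold and cost Npnt and Gjb5 theirs, 2057 with array weights, 1569 with the spike-in block, 1987 with the covariate, and 129 to 1191 with an array left out, lowest without truncated replicate 1. Members above the limit numbered 24, 12 with the limit 1 log2 unit higher, and 16 with the mean of all probe sets. Among the 18 genes followed through the alternatives, signs turned for 4, all below the limit and none past the threshold where it turned. With an array left out, the difference ran from −0.273 to 0.00318 for Gata4 (positive without truncated replicate 2), from −0.15 to 0.11 for Gata6 (positive without wild-type replicate 1 or 3 or truncated replicate 2, at 0.07, 0.06 and 0.11), from −0.0484 to 0.15 for Sox17 (negative without wild-type replicate 2 or truncated replicate 3, at −0.03 and −0.0484) and from −0.156 to 0.0283 for Elf5 (positive without wild-type replicate 2). Gata6 was also positive with array weights (0.18) and in the low spike-in arrays (0.18), and Elf5 with the mean of probe sets (0.00175). The cause of these shifts was not tested.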
